A study of Mus musculus with 32 samples.

Results

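The 39 Hox genes of the 4 mouse clusters were examined together with the CTCF peaks that lie among them. The genes were taken by symbol, Hoxa, Hoxb, Hoxc or Hoxd followed by a number, and they are 39 of the 24940 genes in the deposited RNA-seq table: 11 in HoxA, 10 in HoxB, 9 in HoxC and 9 in HoxD. The rule itself uses symbols and no measured value. The cells were mouse embryonic stem (ES) cells of strain 129. In one genotype, GFP-CTCF-Del8, they carried a fusion of green fluorescent protein and CTCF that lacks zinc finger 8; it is called d8 in RNA-seq and Del8 in ChIP-seq. In the other, GFP-CTCF (GC), the same fusion had all its zinc fingers. RNA-seq covered 3 d8 lines (d8-1 and d8-2 with 3 samples each, d8-3 with 2) and 2 GC lines (GC1 and GC2, 3 samples each), so that both genotypes carried the GFP tag. CTCF ChIP-seq peak lists came from 1 Del8 library and 1 GC library. The labels do not say whether a line is a single clone or whether untagged CTCF was also present. All coordinates are in mouse build mm10.

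Hox genes encode homeodomain transcription factors that set the identity of body segments along the head-to-tail axis. Genes at the 3′ end of a cluster are switched on first and furthest forward in the embryo, those at the 5′ end last and furthest back. In ES cells the clusters are largely silent under Polycomb repression, and CTCF bound between Hox genes has been described as a boundary between their active and their repressed parts. CTCF binds DNA through an array of zinc fingers and halts cohesin, which is how it limits chromatin loops.

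The RNA-seq libraries held 14.3 to 16.7 M reads, as read back from the steps of the RPKM values (reads per kilobase of exon and per unit of sequencing depth). At that depth 3 reads on a transcript of 2000 bp stand for 0.0899 to 0.105 RPKM, so most Hox values rest on few reads. Ctcf itself stood at 23.2 to 37.2 RPKM in the 8 d8 libraries, at 5.58 to 6.23 RPKM in the libraries of line GC1 and at 22.9 to 30.8 RPKM in those of line GC2, and a value for the whole gene cannot check the deletion of zinc finger 8. The ES cell markers Pou5f1, Sox2, Nanog and Zfp42, which define the labelled cell type, were present in all lines, with genotype means from 55.1 to 580 RPKM in d8 and from 89.2 to 520 RPKM in GC; of 10 ES cell markers tested limma called 1 higher (Tdgf1) and 1 lower (Nanog) in d8, beside 3.02% of all tested genes called higher and 5.74% lower. The call of Nanog was lost without any 1 of the 5 lines (limma adjusted p from 0.052 to 0.098), and that of Tdgf1 in 4 of these 5 fits (limma adjusted p up to 0.1). One library stood apart for the Hox genes: sample GC1B summed to 22.7 RPKM over the 39 genes, against 7.75 to 15.9 RPKM in the d8 libraries and 3.63 to 9.41 RPKM in the other GC libraries. Results that rest on it are given with and without it where both were computed.

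Among the promoters of the 22 Hox genes matched in the RefSeq table, 2 lay under a CTCF peak, and they show one retained and one lost site in full. A GC peak counted as retained where a Del8 peak overlapped it by at least 1 bp and as lost where none did. The peak at the start of Hoxa5, a gene of thoracic and lung patterning, was retained: it spans chr6:52204551-52204783, all of it within the promoter at chr6:52204538-52204837 (minus strand). The peak at the start of Hoxd10, a gene of limb and lumbar patterning, was lost: it spans chr2:74691621-74691853 and overlaps the promoter at chr2:74691641-74691940 (plus strand) by 213 bp. Both sequences are printed 5′ to 3′ along the gene, from 250 bases before the start to 50 bases after it (RefSeq, GRCm38.p6). Capitals mark a match to the CTCF core CCANNAGNNGGC with up to 1 mismatch.
Hoxa5 promoter: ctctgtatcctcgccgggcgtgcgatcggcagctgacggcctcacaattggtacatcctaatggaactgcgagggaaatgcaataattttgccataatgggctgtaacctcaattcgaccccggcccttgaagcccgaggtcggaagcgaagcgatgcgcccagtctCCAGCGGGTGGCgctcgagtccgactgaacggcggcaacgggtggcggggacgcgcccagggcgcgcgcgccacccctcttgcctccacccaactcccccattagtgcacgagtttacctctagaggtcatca
Hoxd10 promoter: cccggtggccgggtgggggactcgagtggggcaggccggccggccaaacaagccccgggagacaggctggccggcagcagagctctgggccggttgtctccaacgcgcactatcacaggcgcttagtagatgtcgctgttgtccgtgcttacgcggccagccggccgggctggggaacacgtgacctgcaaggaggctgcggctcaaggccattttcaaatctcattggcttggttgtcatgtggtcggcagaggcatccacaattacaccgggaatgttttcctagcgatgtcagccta
The match in the Hoxa5 promoter, CCAGCGGGTGGC, lay on the strand of the gene at base -83 relative to the start, and its middle was 2.5 bp from the centre of the GC peak. It differs from the core by the substitution A6G, counted from its 5′ end. Other peaks close to a Hox start, such as those upstream of Hoxc10 and Hoxb5, are described below without sequence. The Hoxd10 promoter held no match on either strand. Over all 32851 promoters of this length 30.6% held such a match, among the 1433 under a GC peak 64.2%, and of the 24 promoters matched to 22 Hox genes 7 did (29.2%), close to the share of all promoters. The exact core was in none of the 24 Hox promoters, in 2.43% of all promoters and in 16.1% of those under a GC peak. The tolerance of 1 mismatch was chosen after the Hoxa5 sequence had been seen.

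Of the 26 GC peaks inside the Hox clusters, 15 were retained in Del8 (57.7%, exact 95% binomial interval 36.9 to 76.6%) and 11 were lost (42.3%), against 58% lost among all 26729 GC peaks. HoxC kept all 3 of its peaks, HoxA 4 of 6, HoxB 5 of 11 and HoxD 3 of 6. With 1 library per genotype there is no test of these shares, and the intervals cover counting error only. The GC list was also called from more tags (8.09 M) than the Del8 list (5.59 M), and a site without binding and a site under the caller's threshold cannot be told apart.

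**Figure D1:**
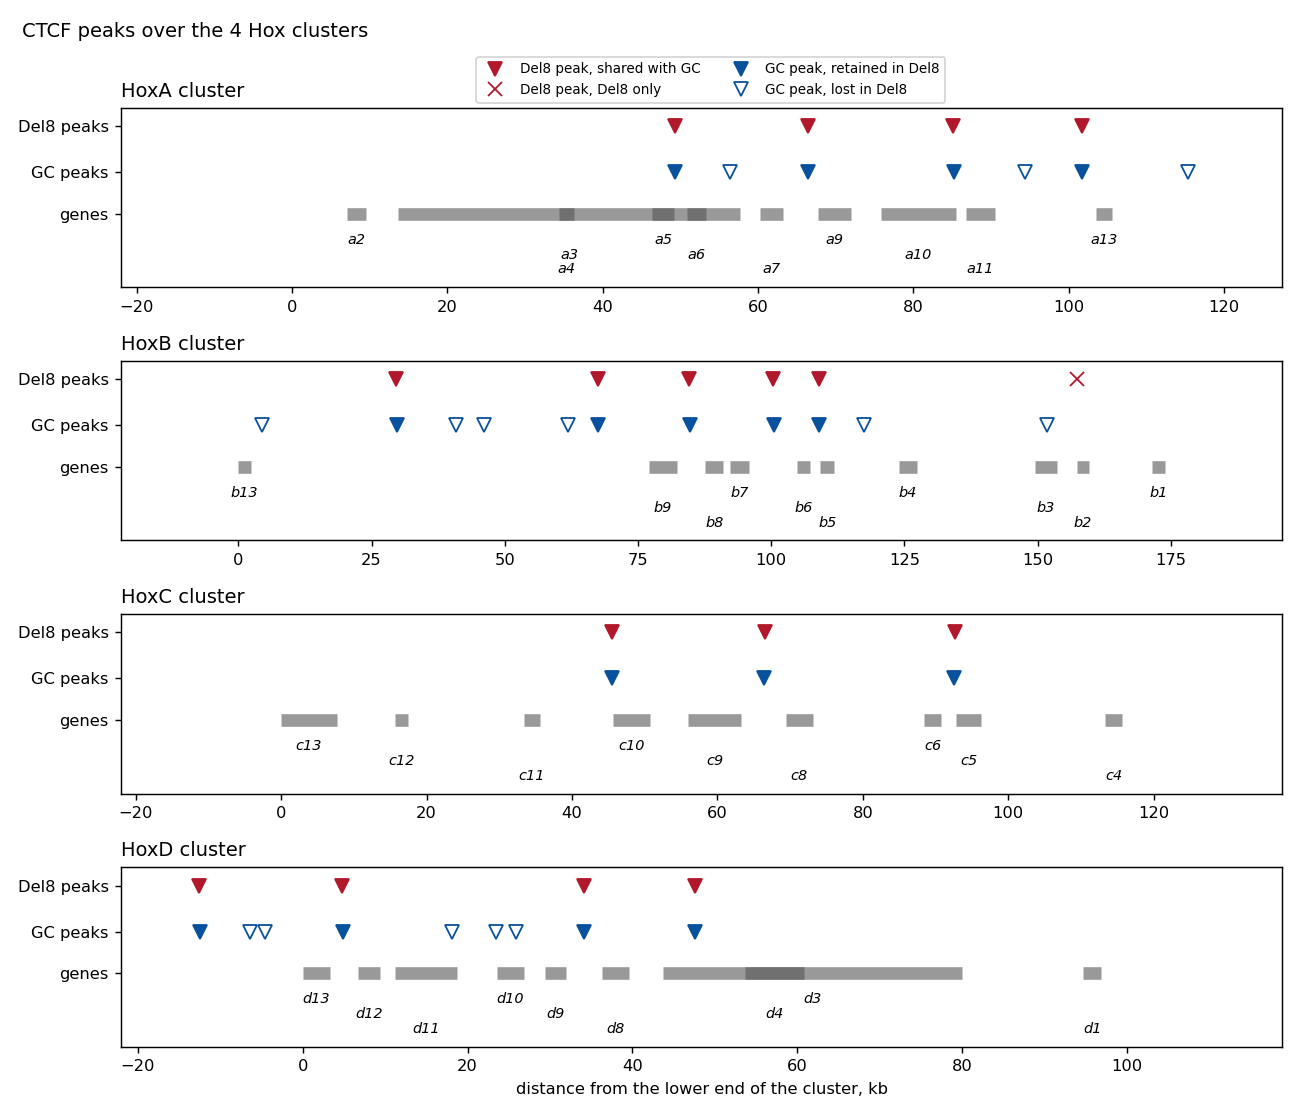
Map of the 4 clusters with distance from the lower end of each cluster in kb on the horizontal axis: Del8 peaks in the top row, GC peaks below them (filled where retained, open where lost) and the Hox genes shown as grey bars. HoxC has 3 GC peaks, all filled, while HoxB has 6 open ones among 11.

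In HoxA the retained peaks stood at the start of Hoxa5, between Hoxa7 and Hoxa9 (chr6:52221678-52221910), in Hoxa10 within 318 bp of its start (chr6:52240420-52240652) and between Hoxa11 and Hoxa13 (chr6:52257014-52257246). The 2 lost ones lay between Hoxa6 and Hoxa7 (chr6:52211651-52211883) and 3862 bp upstream of Hoxa11 (chr6:52249556-52249788). No GC peak lay on the 3′ side of the Hoxa5 peak within the cluster. So the Hoxa5 peak and the peak between Hoxa7 and Hoxa9, both in the first 9.74% of the GC list, were kept, while the one between them, at 13.4% of the list, was not.

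HoxB held 6 of the 11 lost peaks, and 4 of these lay in the wide gap between Hoxb13 and Hoxb9. That gap had 6 GC peaks, of which those at chr11:96223884-96224116 and chr11:96261616-96261848 were retained. The lost peak at chr11:96234973-96235205 stood at position 1747 of the GC list, its first 6.54%, which makes it the highest placed lost peak of all 4 clusters. Towards the 3′ end the peaks between Hoxb9 and Hoxb8, between Hoxb7 and Hoxb6 and 247 bp upstream of Hoxb5 were retained, whereas the peaks between Hoxb5 and Hoxb4 (chr11:96311609-96311841) and inside Hoxb3 (chr11:96346024-96346256) were lost. Del8 also had 1 peak that GC lacked, at the start of Hoxb2 (chr11:96351602-96351848), a hindbrain patterning gene. It was the only peak inside the clusters found in the Del8 list alone.

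In HoxC the 3 retained peaks lay 197 bp upstream of Hoxc10 (chr15:102966483-102966715), between Hoxc9 and Hoxc8 (chr15:102987479-102987711) and 309 bp upstream of Hoxc5 (chr15:103013583-103013815). The last of them overlapped its Del8 partner by less than 50% of its width. In HoxD the peaks between Hoxd13 and Hoxd12 (chr2:74673149-74673381), between Hoxd9 and Hoxd8 (chr2:74702272-74702504) and inside Hoxd3 (chr2:74715821-74716053) were retained. The 3 lost ones sat side by side over Hoxd11 and Hoxd10: chr2:74686368-74686600 in Hoxd11, the peak at the Hoxd10 start and chr2:74694104-74694336 in Hoxd10. Upstream of Hoxd13, towards Evx2, the peak 12.4 kb away was retained and those 6.38 and 4.55 kb away were lost.

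Retained Hox peaks stood higher in the GC list than lost ones, as they did over all GC peaks. Since every deposited score is 1, the order of the list was read as a rank of peak strength, which no header states. Median list position was 5983 for the 15 retained and 15950 for the 11 lost Hox peaks, against 7938 and 17286 among all GC peaks. The retained share of all GC peaks fell along the list: with the list cut into 10 equal parts it was 82.4% in the first part and 11.9% in the last. If each Hox peak were retained at the share of all GC peaks in its own part of the list, 13.9 of the 26 would be retained, and 15 were. Within 1 kb of a Hox start 5 of 6 peaks were retained, and further away 10 of 20, against 55.8% and 40.6% of all GC peaks at those distances from any start. In the 100 kb on either side of the clusters 6 of 13 peaks were retained. Peaks were dense in HoxA, HoxB and HoxD (Del8 3.79, 3.45 and 3.10 per 100 kb, GC 5.69, 6.32 and 6.20 per 100 kb), less so in HoxC (2.59 in each list), and 0.777 in Del8 and 1.34 in GC per 100 kb over the genome size set in the peak caller.

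**Figure D2:**
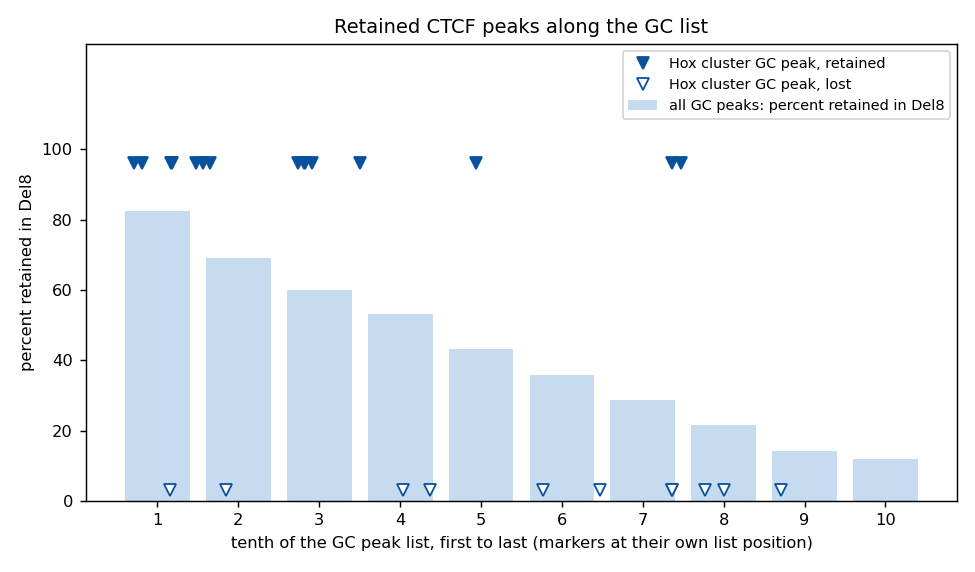
Percent of GC peaks retained in Del8 (vertical axis) in 10 equal parts of the GC list, first to last (horizontal axis, bars), with the 26 Hox cluster peaks drawn at their own list position, filled at the top where retained and open at the bottom where lost. The bars fall from 82.4% in the first part to 11.9% in the last, and 5 of the 6 Hox peaks in the first part are filled.

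Hox RNA was low throughout. Of the 39 genes 34 had a mean under 1 RPKM in every line, 4 reached a mean of 1 RPKM in a genotype, and none was at 0 in all 14 libraries. Among them were Hoxc13 and Hoxd13 at the 5′ ends of their clusters, and Hoxb9. Hoxd8 reached a line mean of 1.03 RPKM, in GC1 only. Summed over the clusters, the line means were 10.01, 11.3 and 15.4 RPKM in d8-1, d8-2 and d8-3, and 13.7 and 4.64 RPKM in GC1 and GC2. Without sample GC1B the GC1 mean was 9.20 RPKM, below all 3 d8 lines. In bulk RNA fewer cells that express a gene and less RNA per cell cannot be told apart.

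**Figure D3:**
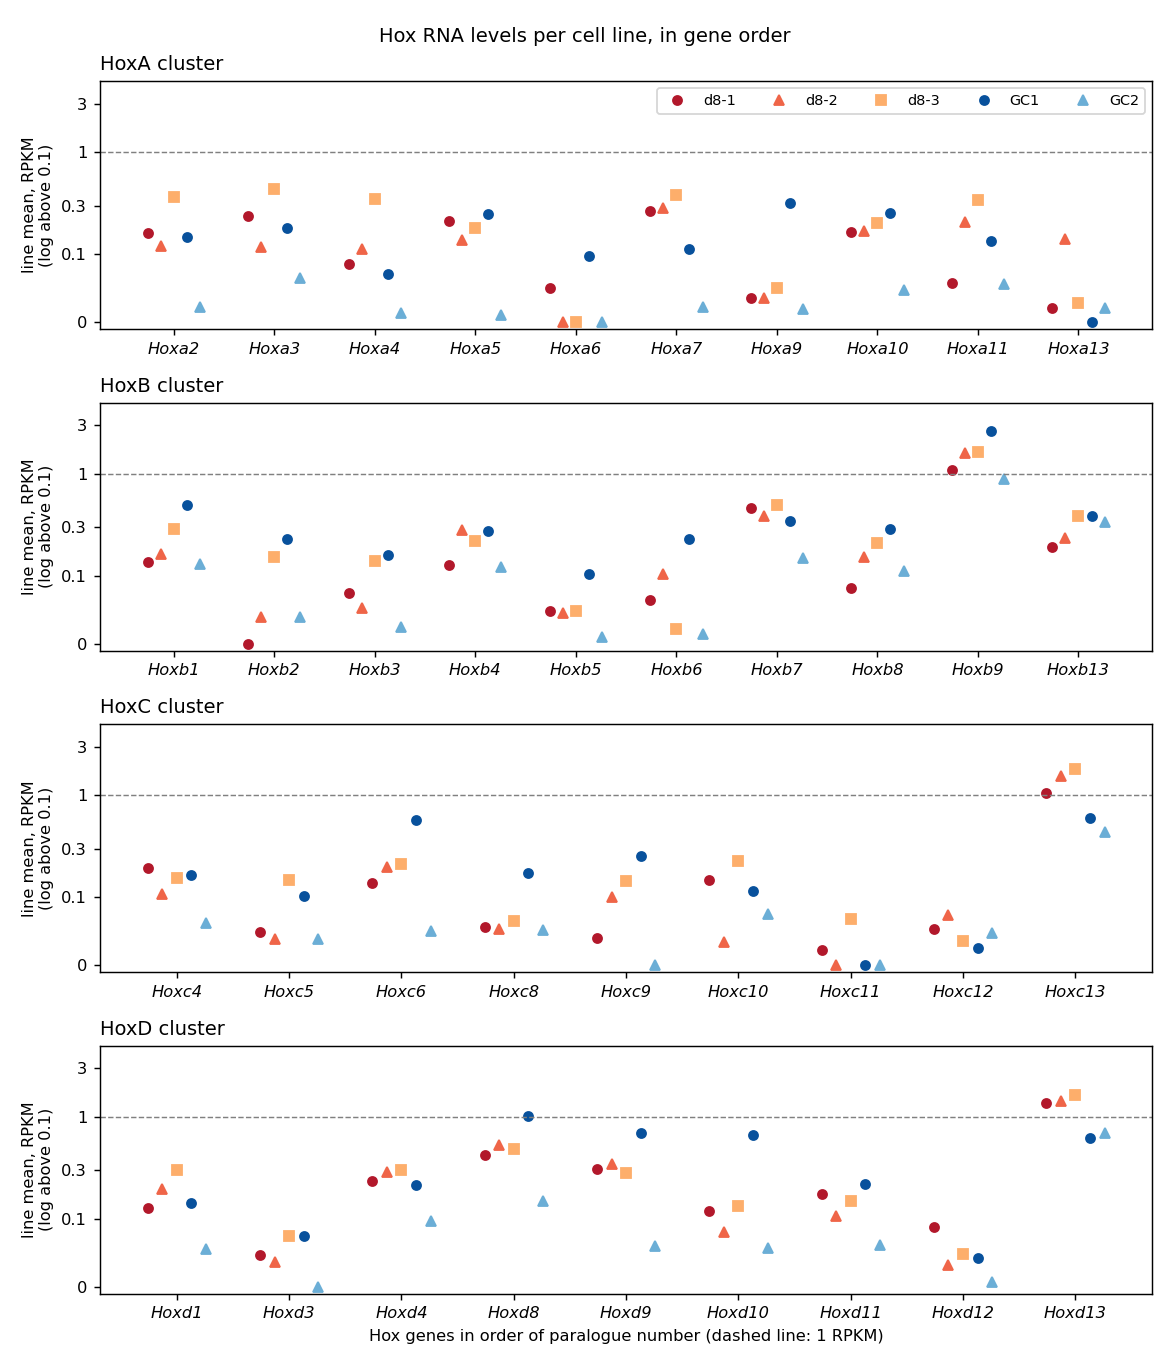
RNA level of the Hox genes shown (vertical axis, mean of a line in RPKM, on a log scale above 0.1) in order of paralogue number (horizontal axis) for the 4 clusters; points are the 3 d8 lines and the 2 GC lines, and the dashed line marks 1 RPKM. Line GC2 is the lowest point for most genes, and over all 39 genes it is below all 3 d8 lines in 31.

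Along HoxA, the anterior genes Hoxa2, Hoxa3 and Hoxa4 were highest in d8-3 (0.368, 0.441 and 0.346 RPKM) and lowest in GC2 (0.0227, 0.065 and 0.0137 RPKM). The annotated Hoxa3 transcript spans Hoxa4, Hoxa5 and Hoxa6, so its reads are uncertain. Hoxa7, a gene of thoracic patterning that lies between a lost and a retained peak, ranged from 0.245 to 0.412 RPKM (median 0.291) over the d8 libraries and from 0 to 0.14 RPKM (median 0.0495) over the GC libraries. Every d8 library of Hoxa7 lay above every GC library. Hoxa6 was nearly silent, with 2 reads in all d8 and 4 in all GC libraries, and Hoxa9 stood highest in GC1 (0.315 RPKM), of which GC1B alone read 0.753 RPKM. Hoxa13, which patterns the hand and the hindgut, had 9 reads in d8 and 1 in GC.

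Along HoxB, Hoxb9, a thoracic gene, was the highest with line means of 1.10, 1.59 and 1.65 RPKM in the d8 lines and 2.61 and 0.89 RPKM in the GC lines. Hoxb1, an early hindbrain gene at the 3′ end, had 0.138, 0.164 and 0.285 RPKM in the d8 lines and 0.494 and 0.13 RPKM in the GC lines. Hoxb2, where the Del8-only peak lay, was at 0, 0.0393 and 0.153 RPKM in the d8 lines and 0.228 and 0.0397 RPKM in the GC lines, so the groups overlapped. Hoxb7 was at 0.459, 0.389 and 0.49 RPKM in the d8 lines, all above the 0.348 and 0.15 RPKM of the GC lines. Hoxb13, isolated at the 5′ end beyond the gap with the 4 lost peaks, averaged 0.27 ± 0.103 RPKM in d8 (SD, n = 3 lines) and 0.36 ± 0.0363 RPKM in GC (SD, n = 2 lines). The cluster summed to 2.29, 3.05 and 3.61 RPKM in the d8 lines, against 5.13 and 1.83 RPKM in the GC lines, and GC1 gave 3.33 RPKM without GC1B.

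Along HoxC, Hoxc13, which acts in hair and nail formation, was the only gene above 1 RPKM. Its neighbours Hoxc12 and Hoxc11 had 6 and 3 reads in all d8 libraries and 3 and 0 reads in all GC libraries. Hoxc6 ranged from 0.044 to 0.273 RPKM (median 0.18) over the d8 libraries and from 0 to 0.992 RPKM (median 0.197) over the GC libraries, the highest again GC1B. The other HoxC genes, Hoxc4, Hoxc5, Hoxc8, Hoxc9 and Hoxc10, had line means between 0 and 0.254 RPKM.

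Along HoxD, Hoxd13, a gene of digit and genital patterning, had line means of 1.37, 1.45 and 1.65 RPKM in the d8 lines and 0.627 and 0.703 RPKM in the GC lines. It was the highest HoxD gene in every line but GC1, where Hoxd8 (1.03 RPKM), Hoxd9 (0.692 RPKM) and Hoxd10 (0.664 RPKM) stood above it. In samples GC1A and GC1C Hoxd13 read 0.589 and 0.658 RPKM, above Hoxd9 and Hoxd10 in both and above Hoxd8 in GC1C only. Hoxd12 next to Hoxd13, across the retained peak between them, was near 0 (0.0887, 0.033 and 0.049 RPKM in the d8 lines, 0.0433 and 0.008 RPKM in the GC lines). Hoxd10, whose start carried a lost peak, ranged from 0 to 0.209 RPKM (median 0.106) over the d8 libraries and from 0 to 1.64 RPKM (median 0.14) over the GC libraries, and the next GC library below GC1B was at 0.184 RPKM. Hoxd8 and Hoxd9 followed the same pattern, with GC1B at 2.04 and 1.47 RPKM and no other GC library above 0.607 and 0.422 RPKM. Hoxd4 was higher in all 3 d8 lines (0.233, 0.291 and 0.304 RPKM) than in both GC lines (0.213 and 0.0977 RPKM).

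Between genotypes 1 Hox gene passed the test and it was higher in d8. This gene was Hoxd13 (chromosome 2, 74668310 to 74671599). Its libraries ranged from 1.09 to 1.79 RPKM (median 1.52) in d8 and from 0.435 to 0.905 RPKM (median 0.646) in GC, with no overlap. It averaged 1.49 ± 0.148 RPKM in d8 (SD, n = 3 lines) and 0.665 ± 0.0533 RPKM in GC (SD, n = 2 lines). The log2 fold change on the log2(RPKM + 1) scale, which understates the change of low genes, was 0.58 (SE 0.13, limma with Benjamini-Hochberg adjustment, adjusted p = 0.041). Of the 4 Hox genes tested this was 1 higher and 0 lower, while 3.02% of the 12468 genes tested were called higher and 5.74% lower (376 and 716 genes, or 516 and 561 after rescaling to TPM and 283 and 267 with each chromosome centred). The call was lost when any 1 of the 5 lines was left out (limma adjusted p from 0.084 to 0.14), and the log2 fold change then stayed between 0.53 and 0.61.

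Hoxc13 (chromosome 15, 102921131 to 102928814) stood next to the threshold. Its libraries ranged from 0.806 to 2.28 RPKM (median 1.29) in d8 and from 0.197 to 0.864 RPKM (median 0.469) in GC, and only the lowest d8 library lay within the range of GC. It averaged 1.47 ± 0.392 RPKM in d8 (SD, n = 3 lines) and 0.519 ± 0.115 RPKM in GC (SD, n = 2 lines) and had a log2 fold change of 0.70 (SE 0.17, limma with Benjamini-Hochberg adjustment, adjusted p = 0.055). It passed in 9 of 20 alternative fits, among them the one without GC1B (limma adjusted p = 0.043). Also among them were both replicate-block fits, which take samples of a line as independent. The nearest GC peak to its start was 45.5 kb away and was retained.

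Hoxb9 (chromosome 11, 96271330 to 96276593) ranged from 1.08 to 2.07 RPKM (median 1.35) over the d8 libraries and from 0.585 to 4.99 RPKM (median 1.04) over the GC libraries. GC1B gave the highest value, and the other GC libraries reached at most 1.84 RPKM. The log2 fold change was -0.03 (SE 0.25, limma with Benjamini-Hochberg adjustment, adjusted p = 0.96), and it was 0.20 without GC1B and 0.37 with each chromosome centred on its median. Chromosome 11 had a median log2 fold change of -0.40 over its 1067 tested genes, against -0.02 on chromosome 6, 0.02 on chromosome 15 and -0.01 on chromosome 2.

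**Figure D4:**
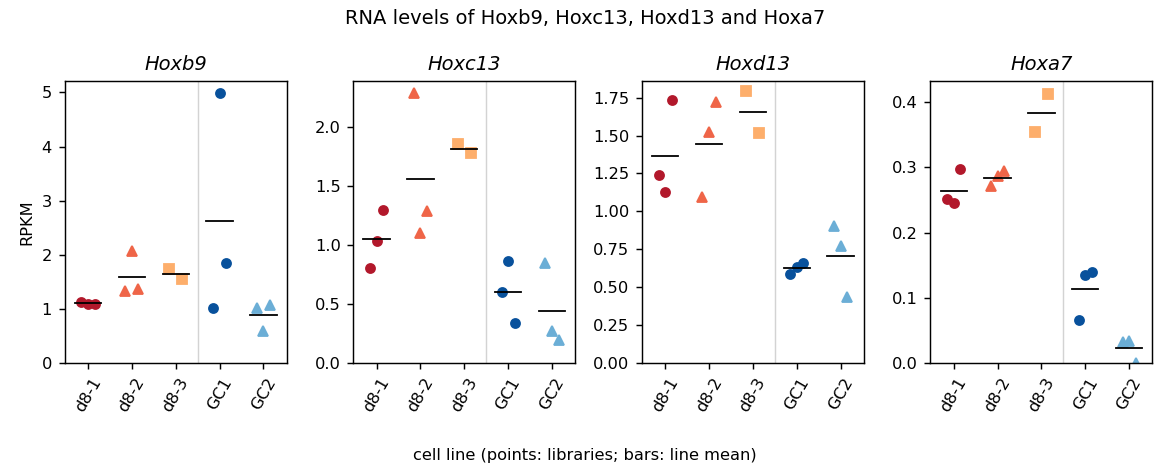
RNA level in RPKM (vertical axis) of Hoxb9, Hoxc13, Hoxd13 and Hoxa7 by cell line (horizontal axis, d8 lines left of GC lines); points are libraries and bars are line means. All d8 points of Hoxd13 and Hoxa7 lie above all GC points, and a single GC1 point of Hoxb9 stands at 4.99 RPKM.

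The other 35 Hox genes were under the filter of 1 RPKM and were not tested there. Of them 5 had all 3 d8 line means above both GC line means (Hoxa4, Hoxa7, Hoxa13, Hoxb7 and Hoxd4) and 0 had all 3 below. Among all genes under the filter and above 0 the shares were 16.7% above and 11.5% below, so the count above is close to the background. With single libraries, 2 of the 39 Hox genes had all 8 d8 libraries above all 6 GC libraries, Hoxa7 and Hoxd13, against 2.94% of genes above 0. A fit with no filter took in all 39 genes and called 0 of them with limma and Benjamini-Hochberg adjustment. At an unadjusted p under 0.05 it had 6 Hox genes higher in d8 (among them Hoxa7, Hoxb7, Hoxc13, Hoxd4 and Hoxd13) and 0 lower, against 9.88% of all genes higher and 11.8% lower. The same fit on reads read back called 2 higher, Hoxc13 and Hoxd13, against 3.29% of all genes, and gave Hoxa7 a limma adjusted p of 0.055 with Benjamini-Hochberg adjustment. Over all 39 genes, 8 had every d8 line above both GC lines, against 18.8% of genes above 0, and without GC1B 11 did, against 19.1%.

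The nearest GC peak to the start was retained for 28 of the Hox genes and lost for 11. All d8 lines lay above both GC lines for 7 of the 28 and for 1 of the 11, which was Hoxd13. The genes share clusters, peaks and libraries, so these counts are a description.

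Lines of the same genotype also had different Hox levels. GC2 lay below GC1 for 35 of 39 Hox genes, against 51.2% of all genes above 0, and below all 3 d8 lines for 31, against 30.4%. The count of GC2 below GC1 was not repeated without GC1B. GC1 lay above all 3 d8 lines for 19 of the 39, against 34.2% of genes above 0, and without GC1B for 11, against 34.8%. Among the 4 tested genes none differed between lines at an adjusted p under 0.05 (limma F test over single libraries, Benjamini-Hochberg adjustment), while 2.32% of all tested genes differed between d8 lines and 6.6% between GC lines. At an unadjusted p under 0.05 limma had 1 of the 4 different between d8 lines and 2 between GC lines, among them Hoxb9, which was lower in GC2, while 17.5% and 22.6% of all tested genes did so. The Hoxb9 samples read 1.01, 4.99 (GC1B) and 1.84 RPKM in GC1, and 1.02, 0.585 and 1.07 RPKM in GC2. That difference leans on GC1B and was not tested without it. With no filter the test called Hoxa3 between the d8 lines, where d8-3 was highest and d8-2 lowest (1.16% of all genes), and Hoxb2, Hoxc6 and Hoxc8 between the GC lines (3.45% of all genes). At an unadjusted p under 0.05 it had 9 of the 39 different between d8 lines and 21 between GC lines. Of all 20792 genes 2919 and 3699 did so. These counts were not repeated without GC1B. For Hoxb2 the samples read 0.038, 0.081 and 0 RPKM in GC2, against 0.312, 0.162 and 0.209 RPKM in GC1 (log2 difference -0.24, SE 0.04, limma with Benjamini-Hochberg adjustment, adjusted p = 0.016). The error in these p-values comes from samples of the same line and may be purely technical. GC1 is also the line with the low Ctcf values given above, and the part of Ctcf level in the Hox values was not tested.

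GC1B, which had the largest Hox sum, also had the most fibroblast marker RNA. It was the highest of all 14 libraries for 19 of the 39 Hox genes, and for 6 of 13 markers of fibroblasts or feeder cells. The same held for 1 of 10 mesoderm, 1 of 10 neuroectoderm and 0 of 10 ES cell markers. The share of all genes that were highest in GC1B was not counted, so these counts have no background beside them. The 13 markers summed to 23.3 to 45.4 RPKM in the d8 libraries and to 64.1 to 212 RPKM in the GC libraries, GC1B being the highest. All 6 defining markers, Col1a1, Col1a2, Col3a1, Dcn, Lum and Postn, were detected in at least 1 library, which by itself does not show the cell type. Lum averaged only 0.0138 RPKM in d8 and 0.061 RPKM in GC, below the 0.0899 RPKM that 3 reads on 2000 bp can stand for. Of the 9 markers tested 0 were higher and 5 lower in d8 (Col1a1, Col1a2, Postn, Acta2 and S100a4), beside 5.74% of all tested genes called lower, with Col1a1 at 0.897 ± 0.527 RPKM in d8 (SD, n = 3 lines) and 11.8 ± 4.91 RPKM in GC (SD, n = 2 lines). At an unadjusted p under 0.05 limma had 6 lower in d8 and 1 higher, Thy1 (5.15 RPKM in d8, 3.67 RPKM in GC). The means of Dcn (1.12 RPKM in d8, 1.33 RPKM in GC) and Twist1 (3.32 and 3.25 RPKM) were close. Acta2, not a defining marker, had the highest level of the list (17.3 RPKM in d8, 68.2 RPKM in GC). S100a4 lost its call in 14 of 20 alternatives, among them the fit without GC1B (limma adjusted p = 0.061). GC2C, the library with the next highest marker sum at 126 RPKM, had a Hox sum of 4.15 RPKM, and only GC2B had a lower one. Markers of primitive streak and mesoderm summed to 4.3 to 19.4 RPKM in d8 and 5.62 to 82.9 RPKM in GC. Within GC they summed to 35.9 to 82.9 RPKM in GC1, highest in GC1A, and to 5.62 to 23.2 RPKM in GC2, which overlapped d8. Those of neuroectoderm summed to 65.5 to 96.4 RPKM in d8 and 84.3 to 108 RPKM in GC. In each of these lists 0 of 5 tested genes were called by limma, while at an unadjusted p under 0.05 mesoderm had 0 higher and 4 lower in d8 and neuroectoderm 2 higher and 2 lower, beside 11.7% of all tested genes higher and 16.1% lower. The fit on reads read back called 1 mesoderm gene lower in d8, Msgn1, beside 573 higher and 686 lower of all 12468 genes tested. The highest mesoderm members were T and Eomes. T averaged 6.92 ± 5.58 RPKM in d8 (SD, n = 3 lines) and 24.2 ± 25.9 RPKM in GC (SD, n = 2 lines), and Eomes 1.67 and 3.42 RPKM. For neuroectoderm the highest were Tubb3 and Nes (49.2 and 9.58 RPKM in d8, 64.9 and 17.3 RPKM in GC). Other neuroectoderm genes had higher values in d8, such as Pax6 (3.52 RPKM in d8, 2.14 RPKM in GC) and Neurod1 (4.13 RPKM in d8, 2.22 RPKM in GC), and the list's median log2 fold change was 0.30. The part of other cell types in the Hox values was not tested.

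**Figure D5:**
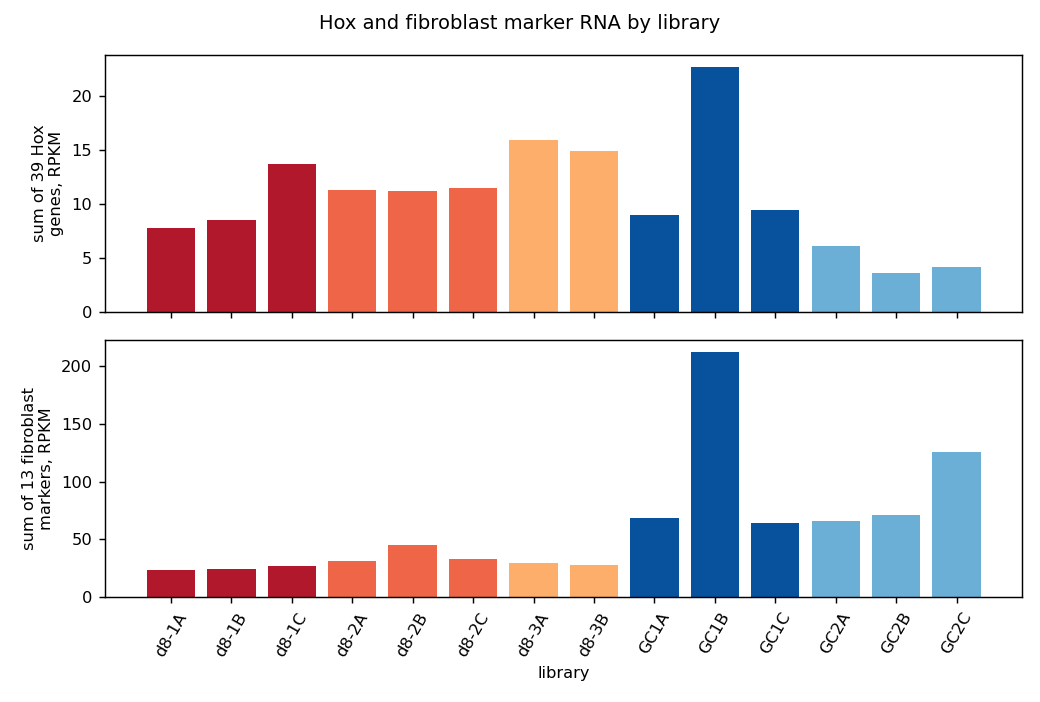
Sum of the 39 Hox genes (top) and of 13 fibroblast markers (bottom), both in RPKM on the vertical axis, in each library (horizontal axis, d8 left of GC). GC1B is the tallest bar in both panels with 22.7 and 212 RPKM.

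HOX proteins bind DNA together with cofactors of the TALE class, of which 8 of 9 entered the test. Of these 0 passed by limma in either direction, beside 3.02% of all tested genes called higher and 5.74% lower. The fit on reads read back also called 0 of these 8, beside 573 higher and 686 lower of all 12468 genes tested. At an unadjusted p under 0.05 limma had 1 lower in d8, beside 16.1% of all tested genes, and 0 higher, beside 11.7%. This was Meis3 (1.78 RPKM in d8, 3.46 RPKM in GC, log2 fold change -0.67, limma adjusted p = 0.091). The 2 highest TALE genes, Pbx2 and Pknox1, averaged 20.6 ± 2.67 and 7.95 ± 0.0898 RPKM in d8 (SD, n = 3 lines), against 23.4 ± 1.10 and 7.71 ± 0.243 RPKM in GC (SD, n = 2 lines). Among the regulators known to act upstream of Hox genes, 1 of 10 tested rose and 1 fell, beside 3.02% of all tested genes called higher and 5.74% lower. Rarg, a retinoic acid receptor, averaged 81 ± 8.48 RPKM in d8 (SD, n = 3 lines) and 52.8 ± 3.31 RPKM in GC (SD, n = 2 lines) and had a log2 fold change of 0.60 (SE 0.10, limma with Benjamini-Hochberg adjustment, adjusted p = 0.025). Cyp26a1, the enzyme that breaks down retinoic acid, averaged 0.438 ± 0.119 RPKM in d8 (SD, n = 3 lines) and 2.48 ± 1.49 RPKM in GC (SD, n = 2 lines) and had a log2 fold change of -1.19 (SE 0.26, limma with Benjamini-Hochberg adjustment, adjusted p = 0.04). Without any 1 of the 5 lines the call of Rarg was lost (limma adjusted p from 0.052 to 0.1). That of Cyp26a1 was lost in 4 of these 5 fits, and its log2 fold change was -0.75 without GC1. The median log2 fold change of the 10 was -0.23, against -0.02 over all tested genes.

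Non-coding transcripts of the clusters were mostly low or at 0. Of the 17 measured, 3 entered the test and 0 passed by limma, beside 3.02% of all tested genes called higher and 5.74% lower. At an unadjusted p under 0.05 limma had 1 of the 3 higher in d8, Hotairm1, beside 11.7% of all tested genes, and 0 lower, beside 16.1%. The fit on reads read back called 0. The precursors Mir10a, Mir10b, Mir196a-2, Mir196b and Mir615 were listed at 0. On a short hairpin 3 reads stand for more RPKM than on 2000 bp, so low values and zeros of such precursors say little. The highest by RPKM were Mir196a-1, a hairpin between Hoxb13 and Hoxb9, with 2.27 ± 0.978 RPKM in d8 (SD, n = 3 lines) and 2.73 ± 0.219 RPKM in GC (SD, n = 2 lines), and Halr1, with 1.70 ± 0.681 RPKM in d8 and 1.81 ± 0.393 RPKM in GC. The place of Mir196a-1 may thus rest on few reads. Among all genes other than Hox genes within 250 kb of a cluster, limma called 0 of 4 tested at HoxA, 0 of 7 at HoxC and 0 of 2 at HoxD, where 2, 2 and 0 had an unadjusted p under 0.05, beside 11.7% of all tested genes higher and 16.1% lower, and the fit on reads read back called 0. These neighbours again include Halr1 and Hotairm1 at HoxA, and Mir196a-1 at HoxB. Hotairm1 is thus 1 of the 2 with an unadjusted p under 0.05 at HoxA. The highest neighbours were Skap2 at HoxA (11.7 RPKM in d8, 9.19 RPKM in GC), Copz1 and Cbx5 at HoxC (83.6 and 57.3 RPKM in d8, 91.2 and 54.4 RPKM in GC) and Mtx2 at HoxD (29.7 RPKM in d8, 32.5 RPKM in GC). At HoxB 5 of 9 fell, which were Igf2bp1, Mir3063, Snf8, Ube2z and Ttll6, and 0 rose, beside 5.74% of all tested genes called lower. The fit on reads read back called 4 of the 5, without Mir3063, beside 573 higher and 686 lower of all 12468 genes tested. All 5 lie beyond Hoxb13, and Snf8, a subunit of the ESCRT machinery, averaged 41.9 ± 3.20 RPKM in d8 (SD, n = 3 lines) and 68.5 ± 5.12 RPKM in GC (SD, n = 2 lines; log2 fold change -0.69, SE 0.09, limma with Benjamini-Hochberg adjustment, adjusted p = 0.016). Chromosome 11 as a whole was lower in d8 by the median given above, with 88.8% of its tested genes negative. With each chromosome centred on its median 0 of the 5 passed (limma adjusted p from 0.071 to 0.45), and their log2 fold changes were -0.11 for Igf2bp1, -0.15 for Ube2z, -0.29 for Snf8, -0.37 for Mir3063 and -0.50 for Ttll6. With any 1 line left out Ttll6 lost its call, and the other 4 did in 3 or 4 of the 5 fits.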

How the data were processed

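RNA-seq values were the RPKM that the authors deposited, 1 column per library; per the file headers they came from HOMER, counting reads in exons of its mm10 gene models with 1 transcript kept per gene and no strand option. Builds mm9 and mm10 appear in the submitters' processing notes, with the tools Bowtie, HISAT2, DESeq2, deepTools and SAMtools. The CTCF peak lists were called by HOMER with a false discovery rate of 0.001 and at least 4-fold over the local 10000 bp, per the file headers. Every deposited peak score was 1, and the headers give no build: 8.76% of GC peaks lay within 1 kb of an mm10 gene start, against 3.26% after a shift of 100 kb. The authors' deposited table of log2 fold changes and p-values covers 1280 genes, none of them a Hox gene, and was not used further; 5 columns of values in it belong to no sample here and were left out. Of the 32 samples in the series, 14 RNA-seq and 2 ChIP-seq samples were used.

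Each line was averaged on the log2(RPKM + 1) scale. Genes with a mean of at least 1 RPKM over the lines of either genotype were fitted with limma 3.58.1 in R 4.3.3 (variance trend allowed), 3 d8 lines against 2 GC lines, two-sided, Benjamini-Hochberg adjustment over all genes tested, threshold 0.05. The cell line was the unit, since samples of a line share their cells. Lines within a genotype were compared by limma over single libraries. Reads were read back from the steps of the RPKM values (tolerance 0.1 read, with the values whole in 100% of cases), and intervals are exact (Clopper-Pearson) and cover counting error only. Depth was 14.3 to 16.7 M reads per library. Alternatives were other pseudocounts, filters, scalings, units, blocks, left-out lines or chromosome 11, other overlap rules and windows; those without sample GC1B and on reads with no filter were chosen after seeing the data. Hox genes are given cluster by cluster in gene order, with 1 tested member not reported here; of the other lists, the members that passed and otherwise the 2 highest. The Hox genes were taken up, and the lists chosen, with earlier results of these data known.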

Additional observations from a re-analysis of the deposited data

Results flagged for a closer look

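Among 77 groups of Hox values checked (the 8 d8 or the 6 GC libraries of a gene), 19 had their highest library far from the rest, by the gap to the next library relative to the range. The rule is set to flag about 1 in 20 groups of independent, normally spread values. Most Hox values rest on few reads and the genes share their libraries. That rate is therefore not a background for the 19 flags, and how many arise by chance was not tested. Of the 19, 17 were in GC and 2 in d8, and GC1B was the outlying library in 15.

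In HoxA and HoxB, GC1B stood at 0.172 RPKM for Hoxa4 (next GC library 0.042), 0.753 for Hoxa9 (0.125), 0.487 for Hoxb4 (0.173), 0.208 for Hoxb5 (0.067), 0.556 for Hoxb6 (0.09), 0.621 for Hoxb8 (0.189) and 4.991 RPKM for Hoxb9 (1.84). In HoxC and HoxD it stood at 0.241 RPKM for Hoxc5 (next GC library 0.072), 0.159 for Hoxd3 (0.044), 0.463 for Hoxd4 (0.124), 2.04 for Hoxd8 (0.607), 1.471 for Hoxd9 (0.422), 1.635 for Hoxd10 (0.184), 0.429 for Hoxd11 (0.121) and 0.13 RPKM for Hoxd12 (0.024). Genes next to each other in HoxD, from Hoxd12 to Hoxd3, were thus high in the same library, as were Hoxb9, Hoxb8 and Hoxb6 to Hoxb4. Hoxd13 and Hoxb13 were not among them.

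The other 4 rest on a few reads: Hoxa6 at 0.22 RPKM in GC1C (next 0.071), Hoxa13 at 0.061 RPKM in GC2B (next 0), Hoxa6 at 0.151 RPKM in d8-1A (next 0) and Hoxc12 at 0.221 RPKM in d8-2B (next 0.083).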

How the results depend on the processing

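The single call, Hoxd13, stands near the threshold. The count of Hox genes past it was 2 with a pseudocount of 0.1, in TPM, with quantile normalization and on reads read back with or without the filter, 3 with the line as a random block, 0 with no filter, with or without GC1B, and 0 without chromosome 11. Leaving out each line, or GC1B, gave 0 to 2. Same-numbered samples did not vary together (correlations -0.204 to 0.112, best with the own number in 1 of 6). These correlations used deviations from the genotype mean, which also hold the differences between lines, so they cannot tell whether the numbers pair samples. With a replicate block by number the count was 2, and by letter 3. Both of these fits take samples of a line as independent, so their p-values are too small for a comparison of lines. The count stayed at 1 with a pseudocount of 0.5, a filter of 0.5 RPKM or centred chromosomes. No alternative called a Hox gene lower. Over 20 alternatives the log2 fold change was 0.53 to 1.18 for Hoxd13 (limma adjusted p 0.0012 to 0.14, past the threshold in 12) and 0.60 to 1.49 for Hoxc13 (0.0041 to 0.17, in 9). The lowest adjusted p of each gene came from the block by letter, and both replicate-block fits are among those counted as past the threshold. That of Hoxb9 turned positive with a pseudocount of 0.1 (0.049), in TPM (0.052), with chromosomes centred (0.37) and without GC1B (0.20, filtered or not), and was -0.42 to 0.37 when a line was left out. Hox genes differing between lines numbered 4 with no filter and 0 with a pseudocount of 0.1. Under the other overlap rules 14 or 15 of 26 GC peaks were retained, against 40.1% and 42.3% of all GC peaks. With only the first 50% of the GC list it was 13 of 17, against 61.5% of all GC peaks there. With only the first 50% of the Del8 list it was 11 of 26, against 28.1%. With 100 kb flanks it was 21 of 39, against 42.0%. Low reads limit 35 of the 39 genes, and single ChIP libraries limit every peak comparison.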
